A study of Mus musculus with 12 samples.

Results

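Strain differences shared by 3 populations of male germ cells were described as genes whose expression was higher, or lower, in PWD/Ph (PWD) than in C57BL/6J (B6) mice at each stage measured. Expression was measured on Affymetrix Mouse Genome 430 2.0 arrays, on which a gene can be read by several probesets, that is by several sets of short probes on different parts of its RNA. A probeset was taken as shared when PWD minus B6 over the 3 populations passed an adjusted p of 0.05 in limma with population as a covariate, when the difference had the same sign in each population, and when its mean over the 12 arrays was above a background level of 4.69 on the log2 scale. A gene was taken when at least 1 probeset that names it alone met these criteria. In all, 3334 of the 9679 genes above background were shared in this sense (34.4%), out of 18193 genes measured. They were 2347 genes higher in PWD (24.2% of genes above background), 871 lower in PWD (9%) and 116 with probesets in both directions. The background level was set so that 95% of 60 probesets, which belong to 34 genes specific to other organs, had a lower mean.

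The arrays comprised 2 for each of 6 groups: PWD prepachytene spermatocytes, PWD pachytene spermatocytes and PWD spermatids, and the same populations of B6. The populations were flow sorted from testes of males of 8 to 10 weeks, the prepachytene one holding leptotene, zygotene and early pachytene cells and the pachytene one mid to late pachytene and diplotene cells. From 15 to 40 ng of RNA entered labelling, and no allele or treatment other than the strain distinguished the groups. Duplicates came from a pair of animals, but the labels do not tie an array to an animal, so that the p-values measure the spread between these arrays. The sorted fractions are enriched rather than pure, and spermatid markers were read in every fraction: the mean over 12 of them was 11.03 and 11.40 in PWD prepachytene arrays and 10.50 and 10.36 in B6 prepachytene arrays, and it was 12.72 and 13.16 in PWD spermatids and 13.59 in both B6 spermatid arrays. Replicate arrays correlated at 0.987 to 0.996 (Pearson, over 45037 probesets).

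PWD was derived from wild *Mus musculus musculus* (*Mmm*), whereas B6 is mostly of *M. m. domesticus* (*Mmd*) origin, and hybrids between such strains are a model of hybrid male sterility. Between subspecies, a gene can differ in expression because its regulatory sequence differs, because its copies differ in number, or because a regulator elsewhere differs. The probes were designed on a reference close to B6. A base that differs in PWD under a probe, or an exon or RNA end used in 1 strain only, changes what that probeset reads without a change of the gene as a whole, and several probesets of a gene give separate readings of it. Probe sequences were not used here, so that the part of probe variants in any single difference was not tested.

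Of 45037 probesets, 5182 passed the test over the 3 populations (11.5%), 3533 higher (7.84%) and 1649 lower in PWD (3.66%). Among those called, 5062 had the same sign in all populations and 120 did not. Above the background level there were 4524 shared probesets of 16881 (26.8%), 3261 higher (19.3%) and 1263 lower in PWD (7.48%). Since the sign and the size came from the same arrays, these counts describe the selection and test nothing further. Among the shared probesets, the arrays of the strains did not overlap in any population in 2595 of 3261 that were higher and in 1006 of 1263 that were lower, where over all 45037 probesets 7.37% were free of overlap as higher and 3.59% as lower.

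The excess of higher over lower genes depended on scaling, whereas nearly all probesets with large differences stayed shared. The median of PWD minus B6 over probesets above background was 0.24 on the log2 scale in the deposited values and 0.073 after the 12 arrays were quantile normalized again. Of the calls, 68.2% were higher in PWD in the deposited values and 51.8% after the second normalization, and of shared genes in 1 direction 72.9% and 54.1%. After it, 2081 of the 3261 higher and 1241 of the 1263 lower probesets were still shared. Of the probesets that differed by at least 1 on the log2 scale in each population, 540 of 542 that were higher and 369 of 369 that were lower remained. They had been chosen for large differences on the same arrays, while the median moved only from 0.24 to 0.073. Their staying shared is thus a description and no test of stability.

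**Figure D1:**
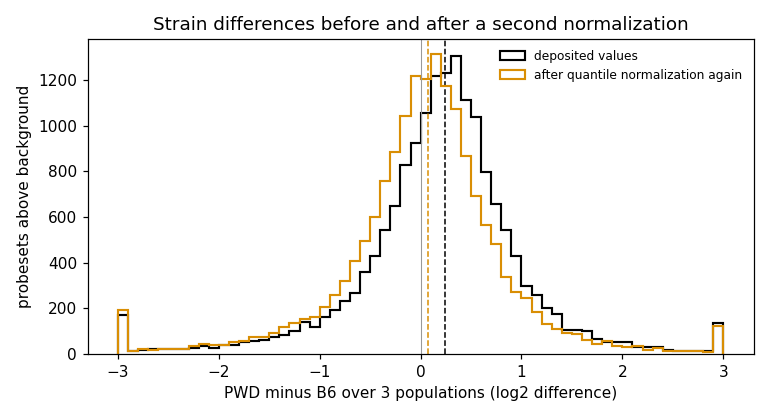
Histogram of PWD minus B6 over the 3 populations (x axis, log2 difference, with values beyond 3 in either direction placed in the end bins) for the 16881 probesets above background (y axis, number of probesets per bin). Dashed lines are medians, 0.24 for the deposited values (black) and 0.073 after quantile normalization again (orange).

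The shared differences were mostly modest in size. Their median was 0.95 in the higher and -1.34 in the lower probesets, on the log2 scale. A difference of at least 1 in each population was seen in 435 genes that were higher and 304 that were lower, 6 of them counted in both. After quantile normalization again these were 319 and 367 genes, so that the order of the counts turned. The share of higher probesets among all in a range of mean level was 9.77% from the background level to 6, and 25.8% above 12, whereas that of lower probesets was 8.93% and 3.31%. Just inside the threshold lay a *Zfp251* probeset (-1.19) and a *Ppp2r1a* probeset (0.55), and just outside it a *Ndfip1* (0.83) and a *Yipf4* probeset (-1.88).

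Among genes read by several probesets, the largest differences higher in PWD on which all probesets above background agreed included *Cap1* (an actin regulator that recycles actin monomers), *Rwdd3* (an enhancer of protein sumoylation) and *Plxnc1* (a semaphorin receptor). These genes were among the 12 of each direction ranked by the smallest difference over their probesets and populations. The brighter *Cap1* probeset (1417461_at, gene at Chr 4: 122859048-122886076, GRCm38) read 11.30 and 10.97 in PWD prepachytene cells, 13.30 and 13.48 in PWD pachytene cells and 11.18 and 11.09 in PWD spermatids. The same populations of B6 read 6.02 and 6.28, 9.08 and 8.74, and 7.87 and 7.65. No B6 array reached the lowest PWD array. PWD was higher by 4.28 ± 0.24 (log2, SE, limma adjusted p = 6.16e-06), a 19.4-fold difference, and the dimmer probeset differed by 3.65 ± 0.35 (limma adjusted p = 0.000194).

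*Rwdd3* (Chr 3: 121155397-121171781) read 10.12, 9.59, 9.63, 10.11, 8.14 and 8.69 over the PWD prepachytene, pachytene and spermatid arrays in its brighter probeset, against 6.91, 6.79, 5.13, 5.42, 4.58 and 4.74 in the B6 arrays. Its lowest PWD value lay above its highest B6 value. The difference was 3.79 ± 0.26 in that probeset and 3.71 ± 0.24 in the other (limma adjusted p = 1.99e-05 and 1.60e-05). The 2 probesets thus gave nearly the same size.

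*Plxnc1* differed by 4.58 and 3.65 in its probesets above background, and 2 of its 4 dimmer probesets were called higher too, by 3.97 and 1.58. *Vgll3*, a cofactor of TEAD transcription factors, was higher by 2.85 and 4.15. *Aldh16a1*, a member of the aldehyde dehydrogenase family, was higher by 3.50 and 3.21. *Bdh1*, which interconverts the mitochondrial ketone bodies, was higher by 3.67 and 5.42.

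For *Scarb2*, which encodes a lysosomal membrane protein that carries beta-glucocerebrosidase to lysosomes, both probesets went the same way but by unequal amounts. One read 8.41 and 8.77 in PWD prepachytene cells, 12.35 and 11.94 in PWD pachytene cells and 12.16 and 12.53 in PWD spermatids, against 2.65 to 3.79 in the 6 B6 arrays. It differed by 8.07 ± 0.68, whereas the other differed by 2.40 ± 0.33 (limma adjusted p = 8.33e-05 and 0.00144). The remaining named genes higher in PWD in every probeset above background were *4930451G09Rik* (2.80 and 4.57), *Zfp28* (2.79 and 2.38), *Rabep2* (1.84 and 1.94), *Cplx1* (1.81 and 2.39) and *Susd5* (3.43 and 2.58).

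Lower in PWD in all of their probesets were, first, *Ttc30a2*, which encodes a subunit of the intraflagellar transport machinery that builds cilia and flagella, and *2010109A12Rik*. *Ttc30a2* (Chr 2: 75976172-75978179) read 4.35 and 3.22 in PWD prepachytene cells, 4.63 and 4.67 in PWD pachytene cells and 4.66 and 4.47 in PWD spermatids. In B6 it read 9.88 and 9.78, 14.30 and 14.27, and 13.87 and 13.72. Every PWD value of this probeset was below the background level, and every B6 value was above it. The differences of its probesets were -8.30 ± 0.54 and -7.96 ± 0.53 (limma adjusted p = 1.54e-05 and 1.69e-05).

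The *Ttc30* genes are close relatives that lie together on Chr 2, and a probeset may read more than 1 of them. The probeset of *Ttc30b* was lower by 2.55 in PWD (-2.55 ± 0.53, limma adjusted p = 0.0127), and that of *Ttc30a1* gave -0.47 ± 0.20 and was not called (limma adjusted p = 0.183). The copies are therefore uncertain.

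*2010109A12Rik* was the named gene of this group with 3 probesets above background, and they gave -5.50, -3.93 and -4.85. *Bbs10*, a chaperonin-like protein that helps to assemble the BBSome of cilia, gave -1.47 and -3.95. *Dusp19* (a phosphatase of the JNK pathway) gave -2.91 and -1.99, *Fam83e* -3.27 and -3.67, *Tedc1* (a partner of delta and epsilon tubulin) -2.93 and -2.41, and *Gins2* (part of the GINS complex of replication forks) -1.81 and -2.28. The others were *Gm14057*, *Slc7a1*, *Prcp*, *Mapk10* and *Crebrf*, at -0.97 to -2.81. The brighter *Slc7a1* probeset (an amino acid transporter) was not called when any of the 4 pachytene arrays was left out, and that of *Prcp* (a lysosomal peptidase) when either B6 pachytene array was (adjusted p up to 0.0615 and 0.0556).

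**Figure D2:**
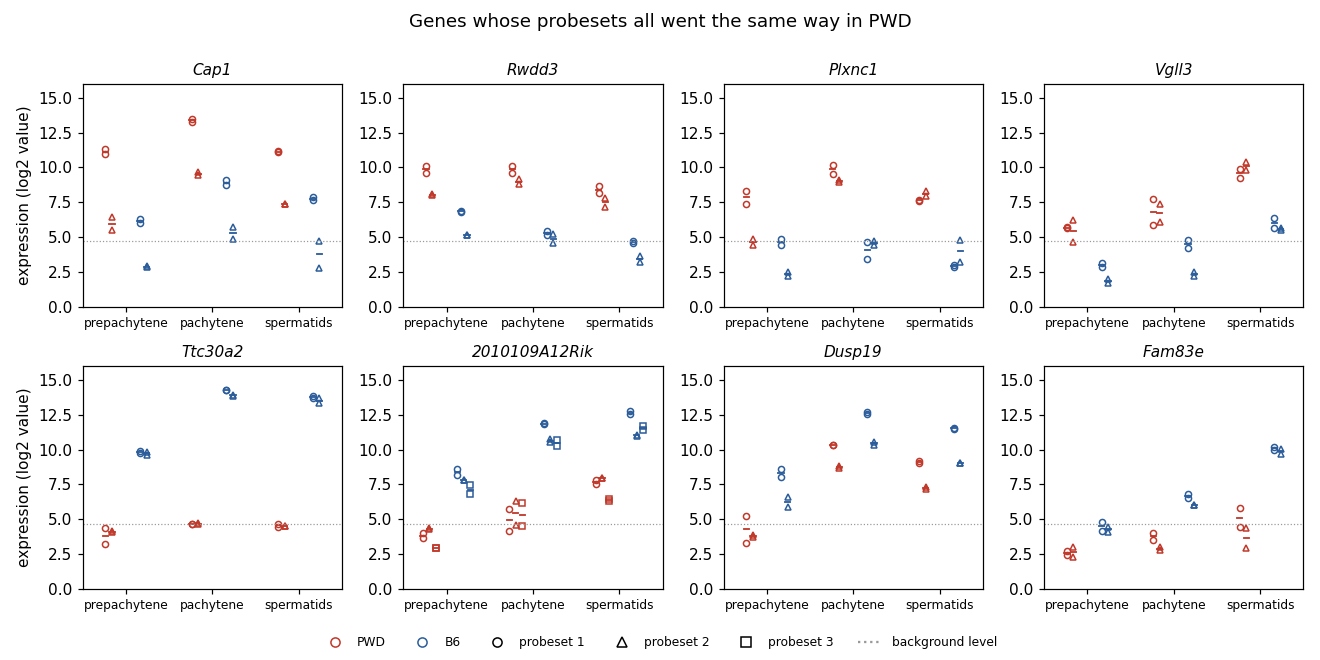
Log2 expression (y axis) in each array, by population (x axis), of 4 genes higher and 4 genes lower in PWD; PWD is red and on the left, B6 blue, symbols are the probesets above background in order of mean level, short bars are means of 2 arrays, and the dotted line is the background level of 4.69. In *Ttc30a2* the PWD values lie at 3.22 to 4.71 and the B6 values at 9.65 to 14.30.

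The promoters of the first 2 genes of each direction that have a single start in the RefSeq table are shown as the stretch of DNA next to genes on which all probesets agreed (RefSeq, GRCm38.p6, 250 bases before to 50 bases after the start, read 5′ to 3′ on the gene's strand, the B6 reference only). Capitals mark a CCAAT box or a GC box (GGGCGG) on either strand; the CRE (TGACGTCA) and the TATA box (TATAAA) were also searched and had no match in these 4. The stretches are chr4:122886027-122886326 (minus strand) for *Cap1*, chr3:121171646-121171945 (minus) for *Rwdd3*, chr2:75978130-75978429 (minus) for *Ttc30a2* and chr7:45720970-45721269 (plus) for *Fam83e*.
Cap1: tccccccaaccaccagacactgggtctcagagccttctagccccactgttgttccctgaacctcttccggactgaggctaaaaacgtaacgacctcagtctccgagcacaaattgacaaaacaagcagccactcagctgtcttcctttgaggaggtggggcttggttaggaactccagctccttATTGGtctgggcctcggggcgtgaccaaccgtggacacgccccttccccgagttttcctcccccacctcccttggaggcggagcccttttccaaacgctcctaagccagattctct
Rwdd3: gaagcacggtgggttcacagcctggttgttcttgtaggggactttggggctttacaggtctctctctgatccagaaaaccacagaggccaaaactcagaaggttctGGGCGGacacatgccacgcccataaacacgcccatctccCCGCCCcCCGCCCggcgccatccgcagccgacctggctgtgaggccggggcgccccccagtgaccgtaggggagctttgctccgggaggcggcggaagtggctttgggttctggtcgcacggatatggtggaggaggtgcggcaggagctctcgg
Ttc30a2: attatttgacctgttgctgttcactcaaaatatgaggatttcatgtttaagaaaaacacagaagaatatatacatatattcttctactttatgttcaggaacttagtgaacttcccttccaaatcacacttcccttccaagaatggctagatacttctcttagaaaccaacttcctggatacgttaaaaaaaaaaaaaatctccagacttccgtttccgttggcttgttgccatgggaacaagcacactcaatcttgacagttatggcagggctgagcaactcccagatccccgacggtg
Fam83e: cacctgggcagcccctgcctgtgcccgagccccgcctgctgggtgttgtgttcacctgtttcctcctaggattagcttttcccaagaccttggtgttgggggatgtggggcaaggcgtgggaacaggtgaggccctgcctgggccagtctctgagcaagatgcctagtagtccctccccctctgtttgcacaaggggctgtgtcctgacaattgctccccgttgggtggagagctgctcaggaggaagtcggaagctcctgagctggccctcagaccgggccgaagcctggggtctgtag

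The shares of promoters with a motif lay within a few percentage points of those of all genes above background, as a description with no test. The first listed promoter was found for 1928 of the 2347 genes higher in PWD, 697 of the 871 lower and 7961 of the 9679 above background. A CRE stood in 3.58% of the promoters of higher genes and 3.73% of those of lower genes, against 3.66% above background and 1.88% of all 27025 promoters. A GC box stood in 66% and 60%, against 62.6% and 35.9%, a CCAAT box in 39.8% and 42.8%, against 39.8% and 37.9%, and a TATA box in 5.76% and 7.46%, against 6.63% and 14.2%.

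Genes with 1 probeset above background gave some of the largest differences, and the readings of the strains were far apart in every population. *Stac*, an adaptor protein of calcium channels, read 9.33 and 8.74 in PWD prepachytene cells, 13.04 and 13.23 in PWD pachytene cells and 10.12 and 10.25 in PWD spermatids, against 3.35 to 3.45 in the 6 B6 arrays (7.37 ± 0.56, limma adjusted p = 4.69e-05). *Elobl* (5.85), *Tmem87a* (5.16), *Igfbp7* (5.68), *Vgll2* (6.34) and *Atp8b4* (4.61) were also higher in PWD.

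Lower in PWD were *Galntl6* (-8.28), *1700029F12Rik* (-8.20), *1700006J14Rik* (-8.15), *4933432K03Rik* (-7.48), *AI987944* (-5.94) and *Afm* (-5.52). *1700006J14Rik* read 2.57 to 3.35 in the 6 PWD arrays, whereas the B6 arrays read 8.87 and 8.23 before pachytene, 12.70 and 12.59 at pachytene and 11.88 and 11.74 in spermatids. Some of these genes have further probesets that were below background on average. One each of *Galntl6*, *4933432K03Rik* and *Afm* gave -1.99, -2.31 and -2.42, and that of *Galntl6* was not called (limma adjusted p = 0.099). Another one of *4933432K03Rik* gave -0.01, those of *Igfbp7* 0.066 and -0.002, and that of *Atp8b4* -0.006, none of them called (limma adjusted p = 0.951, 0.76, 0.913 and 0.927). In all, 54 probesets of 47 genes were shared with a mean below background in each PWD group and above it in each B6 group, and for 37 of 34 genes it was the reverse. The size of such a difference depends on how dim probesets are treated. With every value below the background level set to that level, an alternative chosen after seeing the data, *Stac* differed by 6.10, *Galntl6* by -6.34, *Afm* by -3.18, *Scarb2* by 6.34 in its larger probeset and *Ttc30a2* by -7.95 and -7.69.

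In other genes the probesets contradicted each other. *Pdxdc1* (Chr 16: 13833145-13903176), which encodes a protein with a pyridoxal-dependent decarboxylase domain, had the largest gap between probesets. Its probeset 1419327_at read 12.65 and 13.12 in PWD prepachytene cells, 13.03 and 13.01 in PWD pachytene cells and 12.19 and 12.45 in PWD spermatids, against 1.92 to 2.61 in the 6 B6 arrays. It differed by 10.56 ± 0.14, whereas the brightest probeset, 1452705_at, gave -2.78 ± 0.12 (limma adjusted p = 2.14e-10 and 1.21e-06). That one read 8.13 to 8.82 in PWD and 10.93 to 11.39 in B6. The B6 values of 1419327_at were all below the background level, so that its difference has only a lower bound, 8.05 with those values set to the level. The other probesets gave -0.97 and -1.90, so that 3 of 4 were lower in PWD.

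*Rpn1* (Chr 6: 88084473-88105304), which encodes ribophorin I of the oligosaccharyltransferase, was split the other way. Its probesets 1456438_x_at, 1438943_x_at and 1439257_x_at gave -10.46, -10.18 and -11.10, with 2.24 to 5.89 in the PWD arrays and 12.58 to 15.14 in the B6 arrays. The brightest PWD readings of these 3 were all in prepachytene replicate 2, at 5.50 to 5.89. Meanwhile 1416470_a_at gave 0.13 ± 0.08 (limma adjusted p = 0.423) at 11.20 to 13.65 in PWD and 11.02 to 13.45 in B6, and 1448353_x_at was higher by 0.41 ± 0.09 (limma adjusted p = 0.0147). In 5 of 6 PWD arrays the 3 lower probesets were below the background level, and with those values set to it they gave -8.96, -8.74 and -9.13. On that scale the gap between probesets was 10.84 in *Pdxdc1* and 9.53 in *Rpn1*, against 13.34 and 11.50 as deposited. Both kept their ranks at the top of 1491 genes with several probesets, of which at least 1 but not all were shared in 1 direction. The other 4 genes chosen by this gap ranked from 4 to 26. The 3 lower probesets and 1448353_x_at are of the class whose probes may match other RNAs.

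*Lztfl1*, a regulator of the BBSome, gave 0.43 in its brightest probeset (limma adjusted p = 0.078) and -1.88, -1.30 and -6.31 in 3 others, the last at 2.10 to 2.25 in PWD and 7.21 to 9.66 in B6. *Lin7c*, a scaffold protein of cell junctions, gave 1.31, -1.45 and -5.02, all called. *Caps2* gave -7.09 and 0.87, the second not called (limma adjusted p = 0.276). *Pisd-ps3*, a pseudogene related to *Pisd*, gave 1.30, 1.36, 1.00, -4.14 and 3.26, the third not called (limma adjusted p = 0.204). The probeset at -4.14 gave -6.91 in prepachytene cells, -5.47 in pachytene cells and -0.046 in spermatids, where both strains were below background. Since the *Pisd-ps3* probesets may read *Pisd* and its other copies, the level of the pseudogene itself is uncertain.

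**Figure D3:**
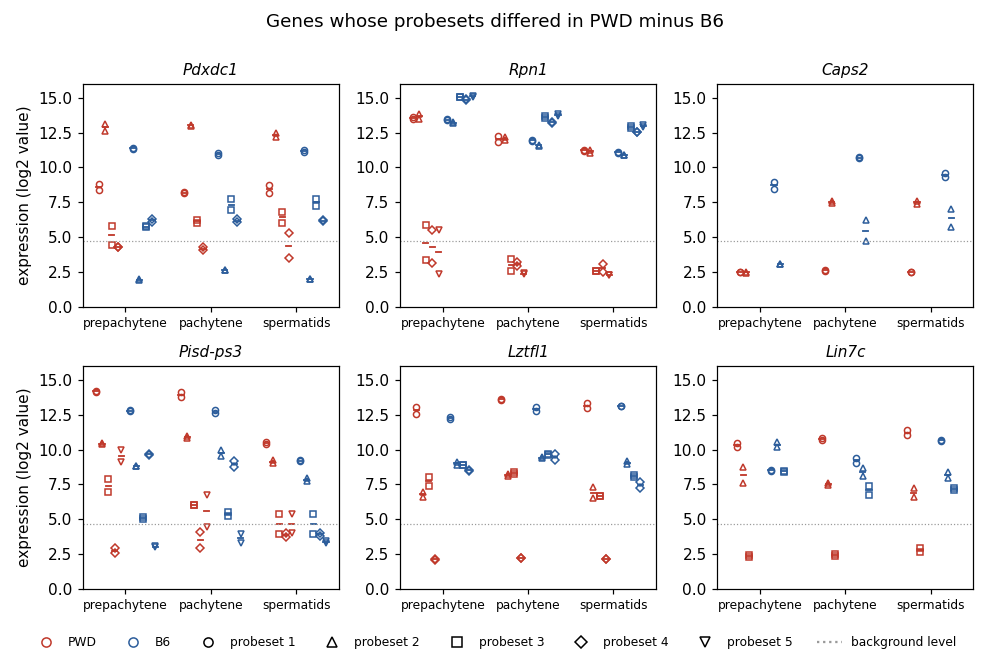
Log2 expression (y axis) in each array by population (x axis) for the 6 genes with the largest gap between probesets; PWD is red and on the left, B6 blue, symbols are probesets above background in order of mean level, short bars are means of 2 arrays, and the dotted line is the background level. For *Pdxdc1* probeset 2 lies at 12.19 to 13.12 in PWD and 1.92 to 2.61 in B6, while the other probesets are lower in PWD.

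Across genes, many with a large difference in 1 probeset had further probesets without it. Of 3578 genes with several probesets above background, 1749 had a shared probeset (48.9%), and in 258 all probesets were shared in 1 direction (7.21%), 211 higher and 47 lower in PWD. The 258 genes became 169 without PWD pachytene replicate 2 or B6 pachytene replicate 2, 171 without B6 pachytene replicate 1 and 46 without all pachytene arrays. Of the 435 genes with a probeset higher by at least 1 in each population, 39 had 2 or more such large probesets. Other probesets here are those not themselves large in the same direction, so that large ones that agree are left out by definition. For 199 of the 435 genes there were 338 other probesets above background. These had a median of 0.41, against 1.79 in the large ones and 0.24 over all probesets above background, and 69.8% of them were higher in PWD, against 66.1% of all. In 78 of the 199 genes another probeset was shared in the same direction, in 22 another was shared in the opposite direction, and in 100 no other probeset was called. By probeset, 105 of the 338 were shared as higher and 27 as lower, where over all probesets above background 19.3% and 7.48% were.

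Of the 304 genes with a probeset lower by at least 1 in each population, 21 had 2 or more such large probesets. There were 289 other probesets, again without the large ones of the same direction, in 173 of the 304 genes. Their median was -0.02, against -2.32 in the large ones and 0.24 over all probesets above background, and 51.2% were lower in PWD, against 33.9% of all. In 47 of the 173 genes another probeset was shared as lower, in 35 another was shared as higher, and in 94 none was called. By probeset, 52 of the 289 were shared as lower and 42 as higher, where over all probesets above background 7.48% and 19.3% were. After quantile normalization again, the other probesets of genes with a large higher probeset had a median of 0.26 and 62.1% were higher, against 0.073 and 55.2% of all probesets above background. Those of genes with a large lower probeset had a median of -0.16 and 58.8% were lower, against 44.8% of all. These values describe genes chosen for 1 probeset, and neither they nor the difference between the directions were tested.

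In the 2283 genes with exactly 2 probesets above background, PWD minus B6 of both correlated at 0.40 (Pearson, across genes, which are not independent replicates), and 66.7% had the same sign. Between the same probesets, the change of pachytene against prepachytene cells over both strains correlated at 0.76, with 79.8% of the same sign. The pair of differences had SDs of 0.91 and 2.51, so that the strain differences were also the smaller ones. Both probesets were shared in 255 genes, in 213 of them in the same direction.

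**Figure D4:**
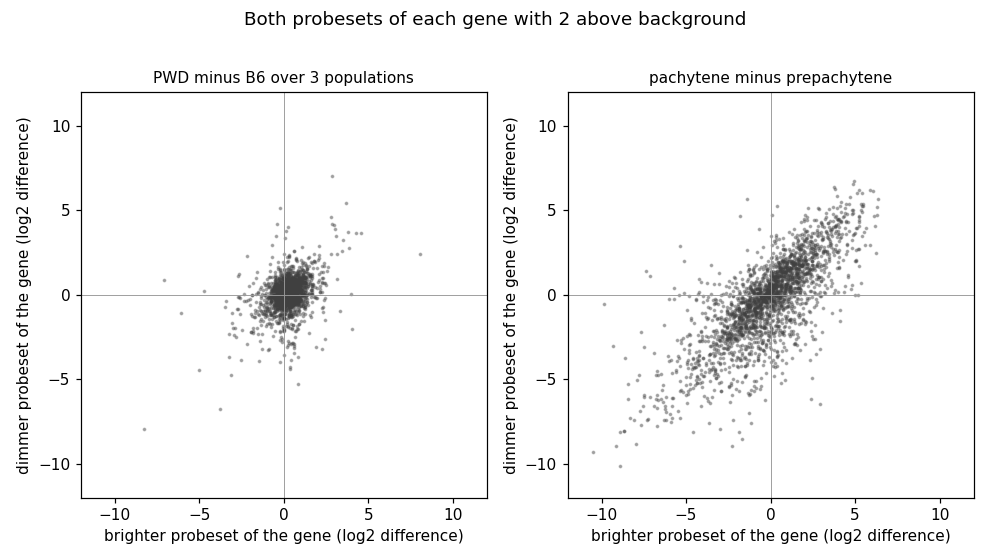
Difference of the dimmer probeset (y axis, log2) against the brighter probeset (x axis, log2) of each of 2283 genes, for PWD minus B6 (left) and for pachytene minus prepachytene cells (right). The points scatter more loosely around a common direction on the left (Pearson 0.40) than on the right (0.76).

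The sharing extended over stages to an unequal degree. Over the 16881 probesets above background, PWD minus B6 correlated at 0.77 between pachytene cells and spermatids, at 0.49 between prepachytene and pachytene cells and at 0.36 between prepachytene cells and spermatids (Pearson, across probesets, from separate arrays that share the probes). In the separate tests of the populations, 18.6% of all probesets were called in prepachytene cells, 12.8% in pachytene cells and 11.9% in spermatids, and 682 of the 3261 higher and 346 of the 1263 lower shared probesets were called in each. Of the shared probesets, 1082 also differed in size between populations (23.9%, limma F test), against 23.5% of all probesets above background and 16.6% of all 45037. By the population in which a probeset was brightest, 18.5% of those brightest in prepachytene cells were shared as higher and 5.43% as lower, 24.5% and 10.2% of those brightest in pachytene cells, and 14.6% and 7.95% of those brightest in spermatids.

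Shared genes were spread over the autosomes and scarce on Chr X. On the autosomes 29.9% to 39.5% of genes above background were shared, lowest on Chr 7 and highest on Chr 16, against 24 of 251 on Chr X (9.56%), 11 higher and 13 lower in PWD. Chr X is silenced in pachytene spermatocytes, and 153 of its 251 genes were below background there (61.0%), against 7.93% of autosomal genes. The sign was the same in all populations in 29.9% of X-linked and 49.2% of autosomal genes. Counted by calls over the 3 populations rather than as shared genes, 21 of the 251 X-linked genes were called (8.37%), against 29.1% of 9382 autosomal genes. Among the 98 X-linked genes above background in pachytene cells 8 were called (8.16%). The autosomal genes were not restricted by their pachytene level.

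**Figure D5:**
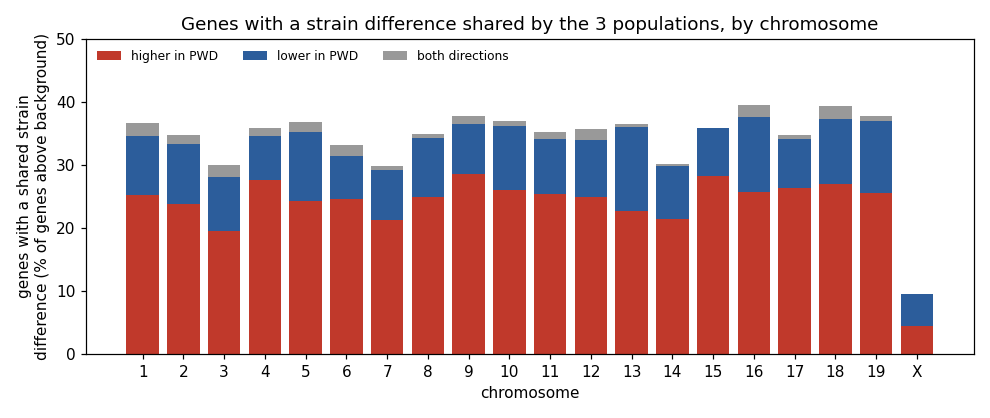
Percentage of genes above background (y axis) with a strain difference shared by the 3 populations, for each chromosome (x axis), higher in PWD (red), lower in PWD (blue) and with probesets in both directions (grey). The autosomes lie at 29.9% to 39.5% and Chr X at 9.56%.

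Gene lists were read by the brightest probeset of each gene. Of all 18193 genes 12.2% were called higher and 4.4% lower, and since most list members were above background, shared list members are set beside the 9679 genes above it. Of these, 21.4% were shared as higher and 6.63% as lower by the brightest probeset, with a median of 0.27. After quantile normalization again the shares were 13.5% and 9.99% and the median was 0.10. Of 20 piRNA pathway genes above background, which protect the germ line from transposons, 7 were shared as higher (35%; *Tdrd12*, *Mybl1*, *Pld6*, *Tdrd5*, *Morc1*, *Pnldc1* and *Tdrd1*) and 0 as lower, with a median of 0.29. After quantile normalization again 5 were shared as higher (25%) and the median was 0.14. *Morc1*, needed for transposon silencing in male germ cells, read 10.39 and 10.22 in PWD prepachytene cells, 9.65 and 9.50 in PWD pachytene cells and 7.96 and 8.75 in PWD spermatids. In B6 it read 8.53 and 8.30, 6.82 and 6.57, and 5.55 and 5.67, so that the strains did not overlap in any population. The difference was 2.50 ± 0.20 (limma adjusted p = 6.17e-05).

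*Mybl1*, the transcription factor of the pachytene piRNA programme, was higher in both probesets, by 2.17 ± 0.24 and 1.34 ± 0.21 (limma adjusted p = 0.00047 and 0.00298). *Tdrd5* (2.22) and *Pnldc1*, which trims piRNA ends (1.55), passed on all arrays but not without PWD pachytene or spermatid replicate 2, and *Tdrd5* also not without B6 pachytene or spermatid replicate 2 (adjusted p up to 0.0543 and 0.06). Neither was called after quantile normalization again (adjusted p = 0.0633 and 0.0804).

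Of 28 genes of meiotic recombination and synapsis above background, 6 were shared as higher (21.4%, the share of all genes) and 1 as lower, with a median of 0.35. After quantile normalization again they were 4 (14.3%) and 2, with a median of 0.17. *Psmc3ip*, whose product promotes strand exchange with MND1, was lower in both probesets, by different amounts. The brighter probeset read 12.45 and 11.81 in PWD prepachytene cells, 11.35 and 12.23 in PWD pachytene cells and 10.88 and 11.39 in PWD spermatids, against 14.22 and 13.78, 14.79 and 14.81, and 14.48 and 14.50 in B6. It gave -2.75 ± 0.26 and the other -0.86 ± 0.14 (limma adjusted p = 0.000194 and 0.00338). Higher were *Sycp3* (0.96) and *Sycp2* (0.82) of the synaptonemal complex axis, *Stag3*, *Msh4*, *Hormad1* (1.42) and *Tex11* (1.30), the last not called without 1 of 6 pachytene or spermatid arrays (PWD replicate 2 or either B6 replicate of both populations, adjusted p up to 0.0747). *Sycp3*, *Sycp2*, *Hormad1* and *Tex11* are also among the 14 markers of prepachytene cells. The mean of these markers was 12.48 and 12.74 in PWD prepachytene arrays, against 12.20 and 12.34 in B6 prepachytene arrays. It was 8.45 and 8.41 in PWD pachytene arrays, against 8.05 and 7.85 in B6 ones, and 8.33 and 8.56 in PWD spermatids, against 7.94 and 7.91 in B6 spermatids. PWD was thus higher in each population, and the part of prepachytene cells in these differences was not tested.

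*Aurkc*, a kinase of the meiotic divisions, was lower in PWD in its probeset, at 4.05 and 4.19 in PWD prepachytene cells, 10.84 and 10.71 in PWD pachytene cells and 7.98 and 8.39 in PWD spermatids. B6 read 8.37 and 7.83, 12.36 and 12.13, and 10.88 and 11.13. The strains were apart in each population, by -2.76 ± 0.35 (limma adjusted p = 0.000909).

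Of 4 genes listed for known alleles of C57BL/6J, only *Nnt* was called in its brightest probeset. *H2-Ea* (-0.13), *Mx1* (0.46) and *Pla2g2a* (0.12) were not called (limma adjusted p = 0.826, 0.153 and 0.646). *Mx1* and *Pla2g2a* were below the background level on average. *Nnt*, the mitochondrial transhydrogenase of which C57BL/6J is known to carry a deletion of several exons, was higher in PWD in both probesets above background. They gave 0.70 ± 0.17 and 1.28 ± 0.26 (limma adjusted p = 0.0224 and 0.0123). The larger difference was read at 6.99 and 7.96 in PWD prepachytene cells, 12.63 and 12.58 in PWD pachytene cells and 10.92 and 11.18 in PWD spermatids, against 5.87 and 5.39, 11.24 and 10.82, and 10.77 and 10.53 in B6. The brighter probeset was not called after quantile normalization again (adjusted p = 0.0621) or without any of 6 arrays, the 4 of pachytene cells and the B6 prepachytene ones (adjusted p up to 0.0592).

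Of the candidate genes of the hybrid sterility region on Chr X, 0 of 6 measured were called in either direction, against 12.2% higher and 4.4% lower over all genes. Only 4 of the 6 were above background, and *Aff2* and *Slitrk2* were below the background level in every array. Of 16 autosomal candidates *Hormad1* was higher and *H2ax*, the histone variant that marks DNA breaks, was lower (-0.72 ± 0.15, limma adjusted p = 0.0143) in their brightest probesets. *Msh3*, a mismatch repair gene, was a shared gene by its dimmer probeset only, which was higher by 1.32 ± 0.28 (limma adjusted p = 0.0149). Its brightest probeset gave -0.51 ± 0.16 and was not called (limma adjusted p = 0.0717), but was lower after quantile normalization again (-0.74, adjusted p = 0.00832). *Prdm9*, which sets the sites of meiotic DNA breaks and takes part in hybrid sterility, gave 0.68 ± 0.20 and was not called (limma adjusted p = 0.053). KRAB and other zinc finger genes, a family with many recent copies, were shared as higher in 30 (15.8%) and as lower in 17 (8.95%) of 190 above background, including *Zfp935* (4.66), *Zfp974* (3.06) and *Zfp979* (-4.09), and after quantile normalization again in 22 and 23. Such genes have close relatives, and which copy was read is uncertain. Autosomal multicopy testis genes were shared as higher in 8 (21.1%) and as lower in 0 of 38 above background, including *Cst9* (1.90), *Speer4f1* (1.54) and *Prss45* (1.45), and after quantile normalization again in 5 and 1.

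For 3 lists of housekeeping genes the share of higher genes lay near that of all genes in the deposited values. Respiratory chain genes were shared as higher in 16 (21.6%) and as lower in 7 (9.46%) of 74 above background, and after quantile normalization again in 4 (5.41%) and 10 (13.5%). Cytosolic ribosomal protein genes were shared as higher in 9 and as lower in 3 of 43, and then in 3 and 5, and proteasome genes in 7 and 3 of 36, and then in 3 and 4. Over all genes above background the counts moved the same way, with 2070 higher and 642 lower in the deposited values and 1306 and 967 after the second normalization. Among members called under both scalings were *Rps25* (-3.12, and -3.27 after the second normalization) and *Ndufb9*, which was higher in both probesets above background (1.33 and 1.70, and 1.09 and 1.45).

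Of 18 genes of MHC class I presentation only 4 were above background, and of 47 interferon-inducible genes only 5. In each list 1 gene was called higher (5.56% and 2.13%, against 12.2% of all genes) and 0 lower (against 4.4%). These were *Tap1* (2.31) and *Ifi202b* (1.68), both below background on average and thus not among the shared genes. Glutathione enzymes were shared as higher in 3 of 21 above background (*Gstcd*, *Gsta2* and *Gstz1*) and as lower in 0, under both scalings. Those higher were 14.3%, against 21.4% of all genes above background and 13.5% after quantile normalization again. In the aldehyde and aldo-keto list 4 (20%) were shared as higher and 3 (15%) as lower of 20 above background. Of all genes above background 6.63% were shared as lower. After quantile normalization again the list had 3 of each. *Akr1a1* was split, at -1.99 in its brightest probeset and 1.53 in another.

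Over all genes above background 21.4% were shared as higher and 6.63% as lower by the brightest probeset. Called over all genes measured were 12.2% higher and 4.4% lower. All 14 prepachytene markers were above background, and 4 were shared as higher (28.6%) and 0 as lower. Of 11 pachytene and diplotene markers 10 were above background. Of these *Tbpl1*, *Spata16* and *Mybl1* were shared as higher (30%) and *Aurkc* as lower (10%). After quantile normalization again 3 prepachytene markers (21.4%) and 2 pachytene and diplotene markers (20%) were shared as higher, against 13.5% of all genes. The mean of the 11 was 9.08 and 9.21 in PWD prepachytene cells, against 9.18 and 9.14 in B6, 12.60 and 12.73 in PWD pachytene cells, against 12.51 and 12.21 in B6, and 11.49 and 11.82 in PWD spermatids, against 11.74 and 11.73 in B6. The strains overlapped in this mean in prepachytene cells and spermatids. The other marker lists except that of Sertoli cells had no called gene. These were 0 of 12 for spermatids, 0 of 7 for spermatogonia (2 above background), 0 of 4 for Leydig cells (0 above) and 0 of 9 for peritubular, endothelial and blood cells (1 above). In the spermatid markers the median of PWD minus B6 was 0.49 in prepachytene cells, 0.27 in pachytene cells and -0.75 in spermatids. Such opposite signs partly cancel in the test over the populations. Of 10 Sertoli cell markers *Vim* (1.47) and *Rhox5* (1.36) were higher. The mean of these 10 was 7.55 and 7.17 in PWD prepachytene arrays, against 6.79 and 6.32 in B6 prepachytene arrays, and 4.28 to 5.51 in the other PWD arrays, against 4.00 to 4.82 in the other B6 arrays. The part of such cells in the shared differences was not tested. A lower share of cells of a type and less RNA per cell cannot be told apart in sorted bulk samples. Of the genes of other organs used for the background level, *Mylpf* (2.47) and *Tnnt2* (2.48) were higher in PWD.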

How the data were processed

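RNA of 12 flow-sorted samples was hybridized to Affymetrix Mouse Genome 430 2.0 arrays after amplified labelling. The authors deposited log2 values, which the submitters' processing notes call GCRMA and the methods RMA, the second for another array; versions are not given in the sources used here. GCRMA estimates background from the bases of each probe before quantile normalization and summary, and a base that differs in PWD under a probe can change a PWD value. The deposited columns still differed in distribution, which is why a second quantile normalization was tried.

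PWD minus B6 was fitted to the 12 arrays with population as a covariate (limma 3.58.1, R 4.3.3). The error of this fit also holds the spread of the strain difference among populations. The 64 control probesets were dropped, the prior variance was allowed to depend on the mean level, and p-values of the 45037 others were adjusted by Benjamini-Hochberg, with 0.05 as the threshold. A fit of the 6 group means gave the F test of dependence on the population. Names came from the platform annotation and the RefSeq table of GRCm38.p6: 34945 probesets had 1 gene (204 not found in RefSeq), 932 several and 9160 none. Plots were drawn with matplotlib 3.10.9 in Python 3.11.15.

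The members, gene lists and rules were chosen with earlier results of these data known. Named genes were the 12 highest and 12 lowest with all probesets above background shared. So were the 6 highest and 6 lowest with 1 such probeset, and the 6 with the largest gap between probesets. Added were up to 4 called members per list, the candidate genes and the 4 listed for known alleles of C57BL/6J. *Zfp251*, *Ppp2r1a*, *Ndfip1* and *Yipf4* mark the threshold, and *Ttc30a1* and *Ttc30b* were named after their values were seen. The number of arrays limits the precision. On simulated arrays with 45037 probesets, PWD minus B6 over 3 populations was recovered as shared for 4% of 50 probesets changed by 0.5, 56% at 1, 96% at 2 and 100% at 4, with 11 false calls, and 0 calls with none changed. The simulated noise was that within the 6 groups, and each change was the same in every population. Dependence on the population, called in 23.5% of probesets above background, was not simulated. The recovery therefore does not carry over to probesets with such dependence. The labels do not say whether replicate numbers pair arrays, and the numbers were not treated as pairs. Deviations from group means correlated at -0.252 to 0.0762 within a strain and at 0.0223 to 0.0866 within a population, which cannot exclude a pairing. Alternatives are given in the closing section.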

Additional observations from a re-analysis of the deposited data

Results flagged for a closer look

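Results were looked at again where the strain difference depended on the population (limma F test, adjusted p under 0.05), in the brightest probeset of 103 named genes above background, including list members not described above. This held for 40 of them, whereas 23.5% of all probesets above background depended on the population. Many of the named genes were chosen for large differences. Groups of 2 arrays were too small to look for single outlying arrays.

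In *Stac*, PWD minus B6 was 5.64 in prepachytene cells, 9.73 in pachytene cells and 6.74 in spermatids, and in *Galntl6* -5.32, -9.80 and -9.73. *Hormad1* gave 0.18, 1.60 and 2.48, *Tdrd5* 0.38, 2.11 and 4.18, and *Aurkc* -3.98, -1.48 and -2.82. Among genes higher in PWD in every population, the adjusted p was 0.000153 for *Stac*, 0.000221 for *Scarb2*, 0.000592 for *Aldh16a1*, 0.000959 for *Hormad1*, 0.0026 for *Gsta2*, 0.00277 for *Tdrd5*, 0.00694 for *Bdh1*, 0.00815 for *Mylpf*, 0.0104 for *Cap1*, 0.011 for *Vgll2*, 0.0148 for *Speer4cos* and 0.0173 for *4930451G09Rik*. It was 0.0193 for *Tnnt2*, 0.0214 for *Nnt*, 0.0227 for *Susd5*, 0.0228 for *Lin7c*, 0.0252 for *Rpl7l1*, 0.0286 for *Gstz1*, 0.0334 for *Sycp3*, 0.0336 for *Ndufb9*, 0.0486 for *Rps4x* and 0.0499 for *Zfp974*. Among genes lower in PWD in every population, it was 0.000165 for *Galntl6*, 0.000168 for *4933432K03Rik*, 0.00022 for *1700029F12Rik*, 0.000573 for *Tedc1*, 0.000829 for *1700006J14Rik*, 0.00102 for *Ndufa1*, 0.00115 for *Slc7a1*, 0.0019 for *Zfp979*, 0.00223 for *Ttc30a2* and 0.00366 for *Aurkc*. It was 0.00601 for *Caps2*, 0.00986 for *Mapk10*, 0.0257 for *Fam83e*, 0.0303 for *Psmd9*, 0.0364 for *Rps25*, 0.0427 for *Gm14057* and 0.0445 for *Akr1a1*. *Smc4*, which was not called over the populations, gave -0.31, 0.52 and 0.13 (0.0409).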

How the results depend on the processing

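With the arrays quantile normalized again, 2320 probesets were called higher in PWD. Centred on probesets above background, 22427 were called, 19057 of them lower, since dim probesets moved with the centring, and *Aff2* (-0.21) and *Slitrk2* (-0.18) turned to lower. With the mean of the contrasts of the 6-group fit, whose error holds the spread of duplicates only, 11132 were called (7110 higher and 4022 lower). At an adjusted p of 0.01 they were 2322 (1604 and 718), with 1716 shared genes, 97 with all probesets in 1 direction and 3304 probesets dependent on the population.

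The replicate block was a check only, since the labels do not say whether the numbers pair arrays. It left the count of called probesets (4408) within 1.5 times. The counts of shared genes, genes with all probesets in 1 direction and genes with a difference of at least 1 also stayed within that range. Dependence on the population was not refitted with this block. Replicate block within population gave 2380 called (1652 and 728), 1759 shared genes and 103 with all probesets in 1 direction. A random block of strain and replicate number, with an estimated correlation of -0.2, gave 9930 (6639 and 3291) and 449, and 1 mean per strain and number 8700 (5502 and 3198).

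Without prepachytene arrays 1571 genes differed by at least 1 in each remaining population. Without pachytene arrays 1606 were called (1037 and 569), with 1178 shared genes and 46 with all probesets in 1 direction. Without spermatid arrays they were 3153 (2262 and 891), 2174 and 110. Without probesets that may match several RNAs, 150 genes had all probesets in 1 direction. The causes were not tested.

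Leaving out 1 array in turn gave 3756 to 5160 called probesets, 2506 to 3728 higher and 1139 to 1590 lower, 2564 to 3377 shared genes, 706 to 762 with a difference of at least 1 in each population and 5417 to 10774 dependent on the population. Genes with all probesets in 1 direction were 169 to 256 against 258, at 169 without PWD pachytene replicate 2, 171 without B6 pachytene replicate 1 and 169 without B6 pachytene replicate 2. Of 89 named genes called, 57 to 89 were still called under the alternatives that tested all 114 of them, with the fewest without pachytene arrays. With 2 arrays per group, small differences are limited by the number of arrays.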
